A study of Mus musculus with 16 samples.

Results

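This report describes the level, in mouse retina, of 10 genes that mark microglia or encode complement C1q, out of the 25905 genes in the authors' deposited table. The genes were chosen by name: the microglial markers Aif1, Cx3cr1, Csf1r, P2ry12, Tmem119, Itgam and Tyrobp, and C1qa, C1qb and C1qc, which encode the chains of C1q. All 10 were found in the table, and 9 of them had a mean above 0. Itgam was listed at 0.

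Retinas from the right eyes of 16 wild type C57BL/6 mice gave 1 library each, 8 from mice in space flight and 8 from ground control mice. The mice were male and are labelled as 10 weeks old, which the study's methods give as the age at flight. The flown mice lived for weeks in habitats aboard the International Space Station and their eyes were collected after return to Earth, so their retinas were taken at an older age. The ground control mice lived on Earth in the same hardware on the same diet. Stranded libraries were made from 100 ng of total RNA. The values used here are means over all 16 libraries, because the deposited columns of counts carry laboratory codes that no label ties to a mouse or a group. A difference between spaceflight and ground control mice, the spread between mice and the depth per library are therefore not analysed here, and the values below have no error.

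Microglia are the resident macrophages of the retina. They survey the synaptic layers, take up dying cells and synapses, and depend on signals from neurons and glia for survival and rest. C1q is the recognition molecule of the classical complement pathway, built from A, B and C chains, and in the nervous system it is made mainly by microglia and tags synapses and debris for uptake. Whole retina holds few microglia among many photoreceptors, so in a bulk library fewer microglia and less RNA per microglial cell cannot be told apart.

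The C1q chains were the highest of the 10 genes once levels were divided by the length of the longest or the counted transcript or of the coding sequence, but not by that of the shortest annotated transcript, which for some genes is a fragment and which put Csf1r and P2ry12 above them. The unit is the mean normalized count, which is the read count after the authors' scaling for library size, averaged over all libraries. The mean normalized count was 40.7 for C1qb, 36.9 for C1qa and 34.0 for C1qc. Divided by the longest annotated transcript, in kilobases, these became 37.4 for C1qb, 35.5 for C1qa and 28.2 for C1qc. The 3 chains lay close together, and with no spread between mice their order is a description only.

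As shares of their summed level per kilobase, C1qb made up 37.0%, C1qa 35.1% and C1qc 27.9%. The ratio of C1qb to C1qc was 1.32 per kilobase and 1.20 without division by length. Each chain is encoded by its own gene, and in the reference annotation the 3 genes follow one another on chromosome 4 in the order C1qb, C1qc and C1qa with no other protein-coding gene between them. Their neighbours on either side, the ephrin receptor genes Ephb2 and Epha8, had mean normalized counts of 397 and 380.

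**Figure D1:**
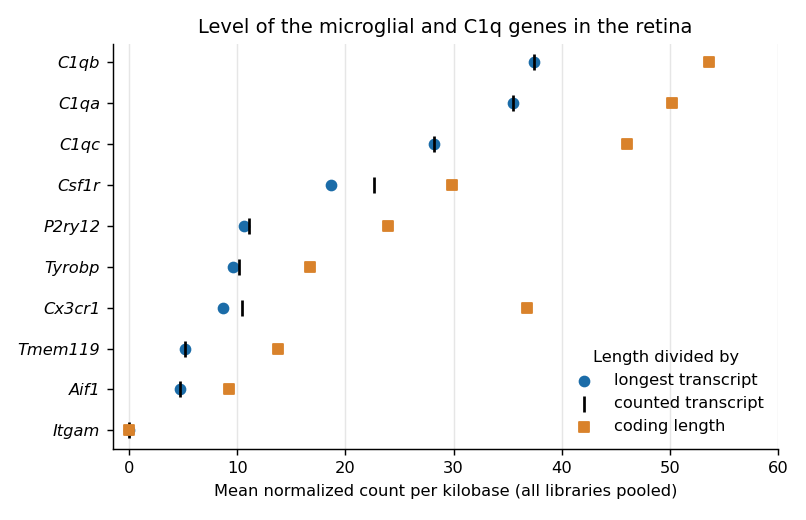
Mean normalized count per kilobase, over all libraries pooled, on the horizontal axis for each of the 10 genes, with 1 marker for each way of setting the length (longest transcript, counted transcript, coding length; the shortest transcript is not drawn). By these lengths the C1q chains are on top with 28.2 to 37.4 per kilobase of longest transcript, and Itgam is at 0; there are no error bars because only pooled means were used.

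Csf1r was the most abundant microglial marker. It encodes the receptor for colony stimulating factor 1 and interleukin 34, on which microglia depend for survival. Its mean normalized count of 87.6 was the highest of the 10 genes before length was taken into account, and its level per kilobase was 18.6. Per kilobase, C1qb was 2.01 times and C1qc 1.52 times the level of Csf1r. With the shortest annotated transcript of each gene the order turned, and C1qb was at 0.178 times the level of Csf1r.

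P2ry12 encodes the purinergic receptor that guides microglial processes to sites of ATP and ADP release, and its expression falls when microglia become reactive. Its mean normalized count was 24.9 and its level per kilobase 10.6. Cx3cr1, the receptor for the neuronal chemokine fractalkine, had a mean normalized count of 39.0 and a level per kilobase of 8.69. Tyrobp encodes the adaptor, also known as DAP12, through which Trem2 and other surface receptors signal. Its short transcript gave a mean normalized count of 5.71 and a level per kilobase of 9.57. The levels per kilobase of P2ry12, Tyrobp and Cx3cr1 were close, and Tyrobp and Cx3cr1 changed places (10.1 and 10.4) when length was taken from the counted transcript instead of the longest one. With the coding length Cx3cr1, whose transcript is mostly noncoding, was at 36.7 and above Csf1r at 29.9.

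Tmem119, a membrane protein that sets microglia apart from other macrophages, had a mean normalized count of 11.6 and a level per kilobase of 5.16. Aif1 encodes IBA1, the calcium-binding protein most used to stain microglia. Its mean normalized count was 4.08 and its level per kilobase 4.66, the lowest of the 9 genes above 0. C1qb was at 8.02 times the level of Aif1 per kilobase and at 7.25 times that of Tmem119. The size of these ratios depended on the length used: with coding length they were 5.79 and 3.89, and with the shortest annotated transcript 4.23 and 1.09.

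Set among all genes with a mean above 0, the members lay near or under the middle. Of the 25905 genes, 19667 had a mean above 0, with a median mean normalized count of 41.8 and a lowest value of 0.0517. All members other than Csf1r, 9 of the 10 with Itgam included, were below that median. By mean normalized count, C1qb was above 49.7% of the genes with a mean above 0, Cx3cr1 above 49.3%, C1qa above 48.8%, C1qc above 48.0% and Csf1r above 58.1%. P2ry12 was above 45.2%, Tmem119 above 38.4%, Tyrobp above 32.5% and Aif1 above 29.5%. Per kilobase the C1q chains were the 3 members above the median of all genes, which was 19.7. The median of the 10 members, Itgam at 0 included, was 10.1. Csf1r, at 18.6 per kilobase of longest transcript, lay just under the median of all genes. By its counted transcript Csf1r was at 22.6, a length for which no median of all genes was computed. Together the members made up 0.00407% of the summed mean normalized counts of all genes.

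**Figure D2:**
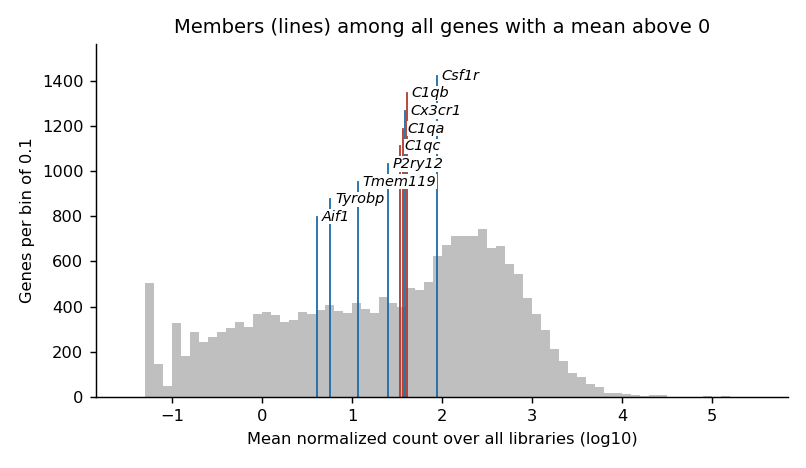
Histogram of the mean normalized count over all libraries (log10, horizontal axis) for the 19667 genes with a mean above 0, with genes per bin on the vertical axis and a line for each of the 9 members above 0 (C1q chains red, microglial markers blue). The members lie between 4.08 (Aif1) and 87.6 (Csf1r), to the left of the main peak of expressed genes; the heights of the lines only separate the names.

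Itgam encodes CD11b, the alpha chain of complement receptor 3, which with Itgb2 takes up targets tagged with complement. It was listed at 0. Itgam was also the member with more than 1 transcript in the authors' table of counts, which has a row for each transcript and not for each gene. It had 2 transcripts there, NM_001082960.1 and NM_008401.2, and the other 9 members had 1 each. The 2 transcripts have 30 exons each and differ inside the coding sequence by 3 bases at the start of exon 14, and otherwise only at their outer ends. The stretch around that start is shown because it is where the transcripts part within the coding sequence, from the GENCODE M21 transcripts of GRCm38, 5′ to 3′, with 30 bases on either side and the bases held by the longer transcript alone in capitals:
NM_001082960.1: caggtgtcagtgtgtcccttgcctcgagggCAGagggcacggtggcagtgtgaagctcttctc
NM_008401.2: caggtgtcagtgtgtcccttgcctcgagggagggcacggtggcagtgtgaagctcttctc

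Of the 4608 windows of 75 bases (the length of the study's reads) in the longer transcript, 4502 (97.7%) were also in the shorter one. Of the 4681 different windows of both transcripts, 3376 (72.1%) were also in a transcript of another annotated gene, Gm49368. For the other 9 members 0 windows were shared with a transcript of another gene. How reads that match both Itgam transcripts were counted was not tested, so the value of Itgam says nothing here on whether CD11b mRNA was in these retinas. Itgb2, its partner chain, had 1 transcript and a mean normalized count of 4.07, or 1.37 per kilobase.

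Across the whole table, genes with several transcripts listed had lower values than genes with 1. The median mean normalized count was 12.9 for the 22086 genes with 1 transcript, 0.652 for the 2704 with 2 and 1.27 for the 1090 with 3 or more, and 22.6%, 34.0% and 29.4% of them were listed at 0. Among genes with curated transcripts only (identifiers starting with NM), the median mean normalized count was 52.2 for the 16959 genes with 1 transcript, 1.62 for the 2071 with 2 and 1.47 for the 915 with 3 or more. A mean normalized count of at least 10 was reached by 61.1%, 30.5% and 25.5% of them. Among the 156 genes of all lists used here, 12 of the 24 with several transcripts were listed at 0, against 8 of the 132 with 1 transcript. Those with several transcripts and low values included Rlbp1, a retinoid-binding protein and defining marker of Müller glia, at 1.39, and Pdc, the photoreceptor protein phosducin, at 0.225.

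**Figure D3:**
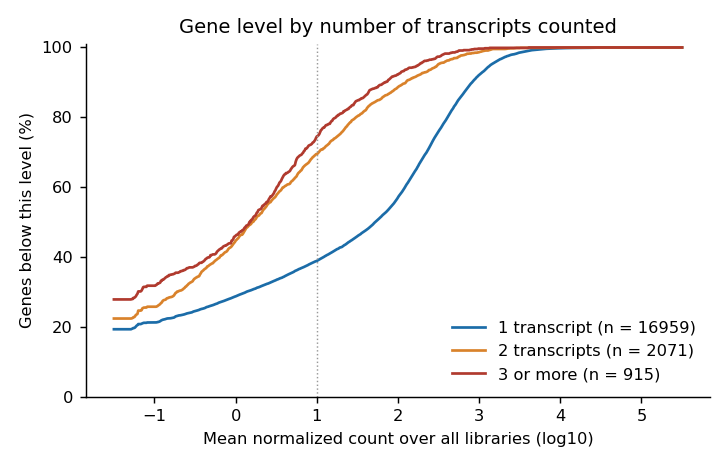
Percent of genes below each mean normalized count (log10, horizontal axis) for genes with 1, 2, or 3 or more curated transcripts in the table of counts; the dotted line marks a mean normalized count of 10. At that line 38.9% of genes with 1 transcript are below, against 69.5% with 2 and 74.5% with 3 or more.

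Other genes enriched in microglia ranged from well below to above the members. All 16 of them were above 0 and had 1 transcript, with a median level per kilobase of 3.46. Among the most abundant were Ctss (cathepsin S) with a mean normalized count of 89.7, Olfml3 with 86.5 and Laptm5, a lysosomal membrane protein, with 32.3. Per kilobase of longest transcript Ctss, at 66.2, was above each C1q chain, while Olfml3, at 15.8, and Laptm5, at 12.4, were below them. Trem2, the lipid receptor that signals through Tyrobp, had a mean normalized count of 5.15 against 5.71 for Tyrobp. Per kilobase of longest transcript Trem2 was at 1.08 and Tyrobp at 9.57, a ratio of 8.89, and per kilobase of counted transcript they were at 4.73 and 10.1, a ratio of 2.14. Fcer1g, an adaptor related to Tyrobp, had a level per kilobase of 18.6. P2ry13, the gene next to P2ry12, had a level per kilobase of 3.67 against 10.6 for P2ry12.

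Among the ligands of the members, the ligand of Cx3cr1 was far above its receptor. Cx3cl1, which encodes fractalkine and is made by neurons, had a mean normalized count of 789, above 90.6% of genes, and its level per kilobase was 27.4 times that of Cx3cr1 (18.1 times with coding length and 169 times with the shortest annotated transcripts). The ligands of Csf1r could not be compared in this way. Il34 had 2 transcripts and was listed at 0, and Csf1 had 3 transcripts and a mean normalized count of 0.687. Entpd1, an ectonucleotidase that breaks down ATP and ADP, had a level per kilobase of 5.46. The kinase Syk (listed under its older symbol Sykb), which acts downstream of Tyrobp, was at 1.12.

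Per kilobase of longest transcript, classical pathway genes that act with C1q were below the C1q chains. Without division by length C4b, whose transcript is long, was above them, with a mean normalized count of 51.7 against 40.7 for C1qb, and with the shortest annotated transcripts C1qb was at 0.541 times the level of C4b. C1ra encodes the protease C1r that joins C1q in the C1 complex, and C1qb was at 15.4 times its level per kilobase, though 42.4% of the windows of C1ra are also in C1rb, so reads could be divided between these copies. C1s, the second protease of the complex, had 2 transcripts and was listed at 0. The substrates C4b, C2 and C3 had levels per kilobase of 9.62, 5.49 and 3.80. C4a was at 2.41, and 23.5% of the windows of C4b are also in C4a, so the split between these copies is uncertain. Over the 6 genes found, C1s at 0 included, the median level per kilobase was 3.11, against 35.5 for the C1q chains. Over the 4 genes with a mean normalized count of at least 10 the median was 4.64.

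Fluid-phase regulators of complement held the highest levels of any complement gene measured. Vtn (vitronectin) had a mean normalized count of 7666 and Clu (clusterin) 4758, each above at least 99.3% of genes, and both are made in quantity by retinal cells and do much besides blocking the terminal complex. Per kilobase they were at 118 and 70.3 times the level of C1qb. Serping1, the inhibitor of C1r and C1s, had a level per kilobase of 40.6, close to the levels of the C1q chains. The median over the 11 regulators was 5.12 per kilobase.

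Genes of the terminal and lectin pathways had the lowest levels among the complement lists, beside the receptors. Of 7 terminal pathway genes, 6 were below a mean normalized count of 1, the exception being C8g at 3.80. C8b was at 0.752, C7 at 0.237 and Hc (C5) at 0.136, and C9 was listed at 0. Among 8 genes of the lectin and alternative pathways the median was 0.106 per kilobase, with Mbl1, Mbl2 and Cfb listed at 0, Cfb with 2 transcripts. Masp2 was at 5.06, Masp1 at 1.73 and Fcna at 0.189. The exception was Cfp, properdin, which stabilizes the alternative convertase, with a mean normalized count of 62.9 and a level per kilobase of 38.5, next to C1qb at 37.4.

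The 4 complement receptors with 1 transcript listed had low values. C3ar1, the receptor for C3a, was the highest of 7 with a mean normalized count of 3.99, followed by Cr2 at 1.95, Itgax at 1.21 and Vsig4 at 0.117. Gpr77, the older symbol of C5ar2, had 2 transcripts and was listed at 0 like Itgam. C5ar1 also had 2 transcripts and was at 0.0618. As with Itgam, the values of Gpr77 and C5ar1 were not read as a level of their mRNA.

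**Figure D4:**
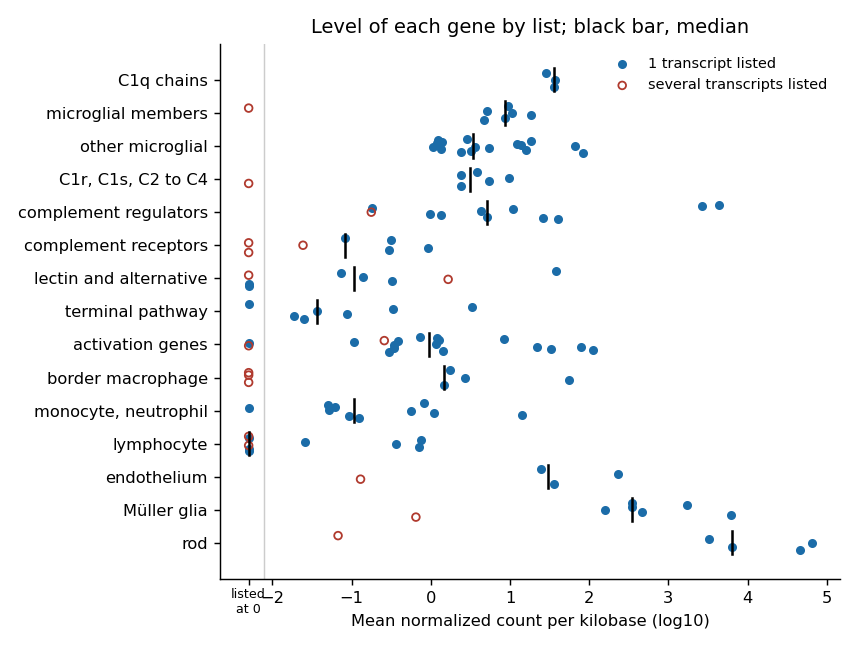
Mean normalized count per kilobase of longest transcript (log10, horizontal axis; the far left column holds genes listed at 0) for each gene of 15 lists, with a black bar at the list's median. Filled points are genes with 1 transcript in the table of counts and open points genes with several. The C1q chains (median 35.5) sit above the microglial members (8.69) and the C1r, C1s, C2 to C4 list (3.11). They sit far below rod genes (6295). The medians include genes listed at 0, such as Itgam and C1s.

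Genes that rise in activated or phagocytic microglia were mixed. Of the 18, 8 were below a mean normalized count of 1 and 5 were at 10 or above. The most abundant were Gpnmb at 290, Spp1 at 167, Lpl at 136 and Axl at 94.1, genes that pigmented cells, ganglion cells, glia or vessels can also express. Ccl4 was listed at 0 with 1 transcript, and Lgals3 was listed at 0 with 2.

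The tissue matched its label by its most abundant markers, but not every listed marker was high. By mean normalized count, Pdc (rods) was at 0.225, Rlbp1 (Müller glia) at 1.39 and Pecam1 (endothelium) at 0.446, each with 2 transcripts. Gnat1, the transducin subunit of rods, had a mean normalized count of 154477, and per kilobase it was at 1755 times the level of C1qb. Glul, the glutamine synthetase of Müller glia, was at 167 times. The median level per kilobase was 6295 for 5 rod genes, 352 for 7 Müller glia genes and 30.5 for 4 endothelial genes. Beside these it was 8.69 for the 7 microglial members, Itgam at 0 included, and 35.5 for the C1q chains.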

How the data were processed

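RNA-Seq libraries of 16 retinas were made by the authors. Their reads passed through Trimmomatic and TopHat2, on an NCBI mouse build older than GRCm38, and HTSeq gave counts per transcript. DESeq2 version 1.22.2 in R version 3.5.1 then served for scaling and for the authors' comparison. The deposited signal value of a gene is its mean normalized count, which the authors made by dividing counts by size factors and averaging over all libraries. It was copied as deposited. The deposited log2 fold-changes, standard errors, Wald statistics and p-values are the authors' own comparison and were not used. The 32 columns of counts in 2 tables carry codes that match no label and were left out, so the planned test between groups was not run and depth per sample is unknown. From the table of counts only the transcript identifiers and gene symbols were read.

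Levels were divided by the longest GENCODE M21 transcript (GRCm38), matched by symbol for 23080 genes (89.1%), all members included. That annotation is not the one counted against, so no coordinates were compared. Percentiles are the share of genes with a mean above 0 that lie lower. Windows of 75 bases were compared on the same strand. The functions were tested on simulated data. The 10 members and 21 further gene lists were chosen with earlier results of these data known. The 160 symbols written, some of them older names of the same gene, gave 156 different genes in the table. Named were all members, up to 4 of the most abundant genes of each list and those listed at 0, except for some genes that are not reported here. Itgb2, Trem2, P2ry13, Csf1, C1ra, C8g, C5ar1 and, as examples of genes with several transcripts, Rlbp1 and Pdc were named after their values were seen. The neighbours Ephb2 and Epha8 were also named after their values were seen. Python 3.11.15, pandas 2.3.3 and matplotlib 3.10.9 were used.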

Additional observations from a re-analysis of the deposited data

How the results depend on the processing

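Of the members above 0, the median percentile moved from 48.0 to 18.6 when only genes with a mean normalized count of at least 10 were ranked, with 7 members left. Their median level per kilobase was 10.6, and became 29.9 with coding length, 35.5 with the shortest annotated transcript, which for some genes is a fragment, and 11.1 with the counted transcript, a setting added after seeing the data. With the shortest transcript Csf1r and P2ry12 stood above the C1q chains, and without division by length Csf1r did. With the shortest transcripts the ratio to C1qb became 302 for Vtn, 228 for Clu, 7870 for Gnat1, 1232 for Glul, 2.13 for Serping1 and 4.20 for Cfp, and with coding length 2745 for Gnat1 and 291 for Glul. With coding length the shares of the C1q chains were 33.5% for C1qa, 35.8% for C1qb and 30.7% for C1qc. Without division by length they were 33.1%, 36.5% and 30.4%, and in both settings the order was the same as before. By the shortest annotated transcript the order changed, with C1qb at 37.4 per kilobase, C1qc at 35.9 and C1qa at 35.5. The median of the microglial members was 9.65 per kilobase with genes of at least 10 only, and 11.6 as mean normalized count. That of the C1q chains was 36.9 as mean normalized count. The tests between spaceflight and ground control mice, with their alternatives, were not run, since no column of counts could be tied to a mouse. No paired analysis was possible because the columns carry no replicate number. Values near the lowest mean of the table, 0.0517, rest on very few reads, and the depth is unknown.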

Other observations

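Markers of other blood-borne and border cells ranged from 0 to above all of the members. By mean normalized count Mrc1, Lyve1, Lyz2 and Hbb-b1 were above Aif1 (4.08) and Tyrobp (5.71). Lyz2 was also above Tmem119 (11.6), and Lyve1 was above every member, Csf1r (87.6) included. Whether the signal of the members came from microglia alone was not tested. Of 7 border macrophage genes, Cd163, F13a1 and Ms4a7 were listed at 0, each with several transcripts, and Mrc1, the mannose receptor, had a mean normalized count of 7.85, Cbr2 1.95 and Pf4 1.61. Lyve1, which lymphatic vessels also carry, stood apart at 159, above 67.2% of genes with a mean above 0. Of 10 monocyte and neutrophil genes, 8 were below 1. Lyz2, the lysozyme of myeloid cells that microglia can also make, was at 18.4, followed by Plac8 at 1.01, S100a8 at 0.540 and Ccr2 at 0.529. Camp was listed at 0 with 1 transcript.

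Of 9 lymphocyte genes, 5 were listed at 0, of which Cd8a and Klrb1c had several transcripts and Cd3e, Cd3g and Nkg7 had 1. The highest was Cd4, which macrophages can also express, at 2.20, followed by Cd79a at 1.11, and Ms4a1 was at 0.0800. Of the red blood cell genes, Hbb-b1 had a mean normalized count of 10.7 and Hba-a1 0.213, and Alas2, with 2 transcripts, was listed at 0. The median level per kilobase of the remaining lists was 556 for cones, 503 for bipolar cells, 496 for amacrine cells, 459 for ganglion cells, 73.4 for pigment epithelium and 19.3 for astrocytes.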
